A study of Mus musculus with 4 samples.

Results

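Peaks of accessible DNA were examined at 10 genes of the NF-kB pathway, chosen by name: the subunit genes Nfkb1, Nfkb2, Rel and Relb, the inhibitor genes Nfkbia, Nfkbie, Nfkbiz and Tnfaip3, and the target and adaptor genes Traf1 and Birc3. All 10 were found among 21631 protein-coding genes on chromosomes 1 to 19 and X. A member's locus was its gene body with 20 kb on either side. In 4 peak lists these loci held 60 peaks, which merged into 22 of the 15237 regions of the series. A region is a stretch covered by overlapping peaks of any list, and a list holds it if it has a peak there. The rule that chose the genes used no measured value, but earlier results of these data were known when they were chosen.

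The assay was ATAC-seq, in which the Tn5 transposase cuts and tags open chromatin, on CD8+ lymphocytes of BALB/c mice that the series title calls tumour-infiltrating. There were 4 conditions with 1 library each: unstimulated and untreated, unstimulated with phenelzine, stimulated and untreated, and stimulated with phenelzine. Stimulation was with PMA, a phorbol ester that activates protein kinase C, and ionomycin, a calcium ionophore, for 2 h. The labels give 1 mg/mL PMA and 10 mM ionomycin and do not say whether these are stock or final concentrations. Phenelzine blocks monoamine oxidases and, as a second activity, the histone demethylase LSD1. The sources used here do not give its dose and duration, the tumour, the ages of the animals or the number pooled per library. Since each condition has 1 library, conditions could not be tested against each other, and no difference below has a replicate check.

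NF-kB factors are dimers of Rel-family proteins. In a resting T cell most are held in the cytoplasm by IkB proteins, and kinase signalling from the antigen receptor, for which PMA substitutes through protein kinase C, leads to IkB breakdown and entry of the dimers into the nucleus. Many genes that the dimers switch on encode the pathway's own brakes, so that the response ends by feedback.

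The promoter sequences shown first are those of the 5 members with a match to the DNA motif that NF-kB binds. Peaks lay over matches in 4 of the 5, and the fifth had no peak over its match. How often other promoters with a match hold a peak over it was not computed, so nothing about NF-kB was read from this count. Each sequence runs 5′ to 3′ on the gene's strand from 250 bases before the start site to 50 bases from it onward. It was taken from RefSeq on GRCm38.p6, the assembly known as mm10. Capitals mark matches to the kB consensus, on either strand, with overlapping matches joined. In the text below a match is spelled on the strand that fits the consensus, and its position is that of its first base on the printed strand, counted from 0 at the start site. The positions are chr19:46304487-46304786 (plus strand) for Nfkb2, chr11:23770920-23771219 (minus strand) for Rel, chr12:55492598-55492897 (minus strand) for Nfkbia, chr17:45555450-45555749 (plus strand) for Nfkbie and chr10:19015361-19015660 (minus strand) for Tnfaip3.
Nfkb2: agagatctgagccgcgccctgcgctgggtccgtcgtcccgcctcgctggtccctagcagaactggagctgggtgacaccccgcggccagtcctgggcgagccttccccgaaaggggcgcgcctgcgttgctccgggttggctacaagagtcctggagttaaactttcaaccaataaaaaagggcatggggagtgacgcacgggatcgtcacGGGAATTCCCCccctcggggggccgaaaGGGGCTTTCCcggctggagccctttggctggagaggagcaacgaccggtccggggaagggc
Rel: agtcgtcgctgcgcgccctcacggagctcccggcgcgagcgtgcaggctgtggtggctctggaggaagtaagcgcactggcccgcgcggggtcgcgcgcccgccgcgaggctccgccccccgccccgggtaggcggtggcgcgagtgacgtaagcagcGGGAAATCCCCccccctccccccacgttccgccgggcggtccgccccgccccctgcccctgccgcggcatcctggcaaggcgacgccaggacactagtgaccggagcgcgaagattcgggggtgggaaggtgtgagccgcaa
Nfkbia: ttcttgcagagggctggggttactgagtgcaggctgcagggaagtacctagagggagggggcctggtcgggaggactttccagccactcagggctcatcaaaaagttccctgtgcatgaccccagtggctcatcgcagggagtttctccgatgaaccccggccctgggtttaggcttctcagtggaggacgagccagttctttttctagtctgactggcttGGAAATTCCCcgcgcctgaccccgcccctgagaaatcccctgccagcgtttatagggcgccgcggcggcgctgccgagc
Nfkbie: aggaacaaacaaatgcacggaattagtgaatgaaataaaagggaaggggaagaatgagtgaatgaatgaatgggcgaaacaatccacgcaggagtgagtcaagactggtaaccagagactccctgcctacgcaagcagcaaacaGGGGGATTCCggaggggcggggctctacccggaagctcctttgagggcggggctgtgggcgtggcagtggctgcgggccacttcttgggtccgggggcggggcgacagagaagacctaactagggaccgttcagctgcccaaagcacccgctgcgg
Tnfaip3: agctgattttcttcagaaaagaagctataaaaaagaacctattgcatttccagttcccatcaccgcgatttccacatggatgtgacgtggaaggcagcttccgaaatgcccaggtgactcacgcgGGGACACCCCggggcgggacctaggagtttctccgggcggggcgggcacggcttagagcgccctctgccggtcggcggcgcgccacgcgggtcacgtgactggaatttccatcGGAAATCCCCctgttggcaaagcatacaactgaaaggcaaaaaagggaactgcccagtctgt

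Promoter sequences were matched for 7 of the 10 members, with 10 windows in all because Nfkb2 has 3 start sites and Tnfaip3 has 2. Nfkb1, Relb and Nfkbiz had no entry. A kB match lay in a window of 5 of these 7 genes, against 10.7% of the 17274 protein-coding genes with a window of the same 300 bases. By window the count was 7 of 10, against 9.34% of 21045, and 2 of the Nfkb2 windows overlap and share a match. The windows of Traf1 and Birc3 held none. The AP-1 site, TGANTCA on both strands, lay in windows of 3 of the 7 genes (Nfkb2, Nfkbie and Tnfaip3), against 8.19% of genes. The core of the CRE site, TGACG on both strands, also lay in windows of 3 (Nfkb2, Rel and Tnfaip3), against 26.5%. These motif counts use reference sequence alone, for genes chosen by name for their part in the pathway, and say nothing about these cells. A match is a string of letters and was not shown to be bound.

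Across the 4 lists, the member loci held 11 distinct regions in unstimulated untreated cells, 14 with phenelzine, 17 in cells stimulated without phenelzine and 18 in cells stimulated with it. The lists themselves differed in length in a like way, with 6519, 7929, 10405 and 9322 peaks on the chromosomes used. The shortest list thus had the fewest member regions, but the longest did not have the most. This order depended on the peaks kept: with every list cut to its strongest 6519 peaks the counts were 11, 12, 14 and 12, and with a −log10 q of at least 3 they were 6, 5, 11 and 8, so that stimulated untreated cells had the most under both. The median number of regions per member was 1, 1, 1.5 and 2 in that order, against 0, 0, 1 and 0 over all genes. Members with at least 1 region numbered 8, 10, 9 and 9 of 10. Over all genes that share was 40.4%, 44.6%, 50.6% and 47.6%. Counting any list, it was 10 of 10 members against 58.1% of all genes. The members' median gene length was 21642.5 bp and that of all genes 17329 bp.

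The peaks rested on few fragments. Total reads are not in the lists, and the background coverage implied by each list stands in for depth, a pileup of 0.392, 0.471, 0.493 and 0.489 overlapping fragments in the same order. On that scale the 60 member peaks stood on 4.29 to 10.5 overlapping fragments, with a median of 6.28. These pileups are approximate, because a single background value was used per list while the deposited fold is over local background. The exact Poisson 95% interval of 6 fragments runs from 2.20 to 13.1 and that of 11 fragments from 5.49 to 19.7, for counting error only. In each list 99% of peaks lay above a pileup of 4.37 to 4.53. A missing peak means that nothing there passed the calling rules, which are not stated, and not that chromatin was closed. Of the 60 member peaks, 30 had a −log10 q of at least 3, beside 45.9% of all peaks of the 4 lists. At or above the median −log10 q of their own list were 35, a mark that splits each list evenly. Nothing particular to the members was read from these counts.

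The first question for each region was which gene it sits at. For 15 of the 22 regions the nearest start site of a protein-coding gene was the member's own, and for 7 it was a neighbour's. Start sites came from the promoter table, and where it had none both ends of the gene were used. The neighbours were Hsp90ab1 (3 regions), which encodes a cytosolic HSP90 chaperone, Slc35b2, a solute carrier gene, Fbxl15, an F-box gene, Clasrp, a splicing regulator gene, and Birc2, the paralog of Birc3. Distance does not show which gene a region acts on.

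**Figure D1:**
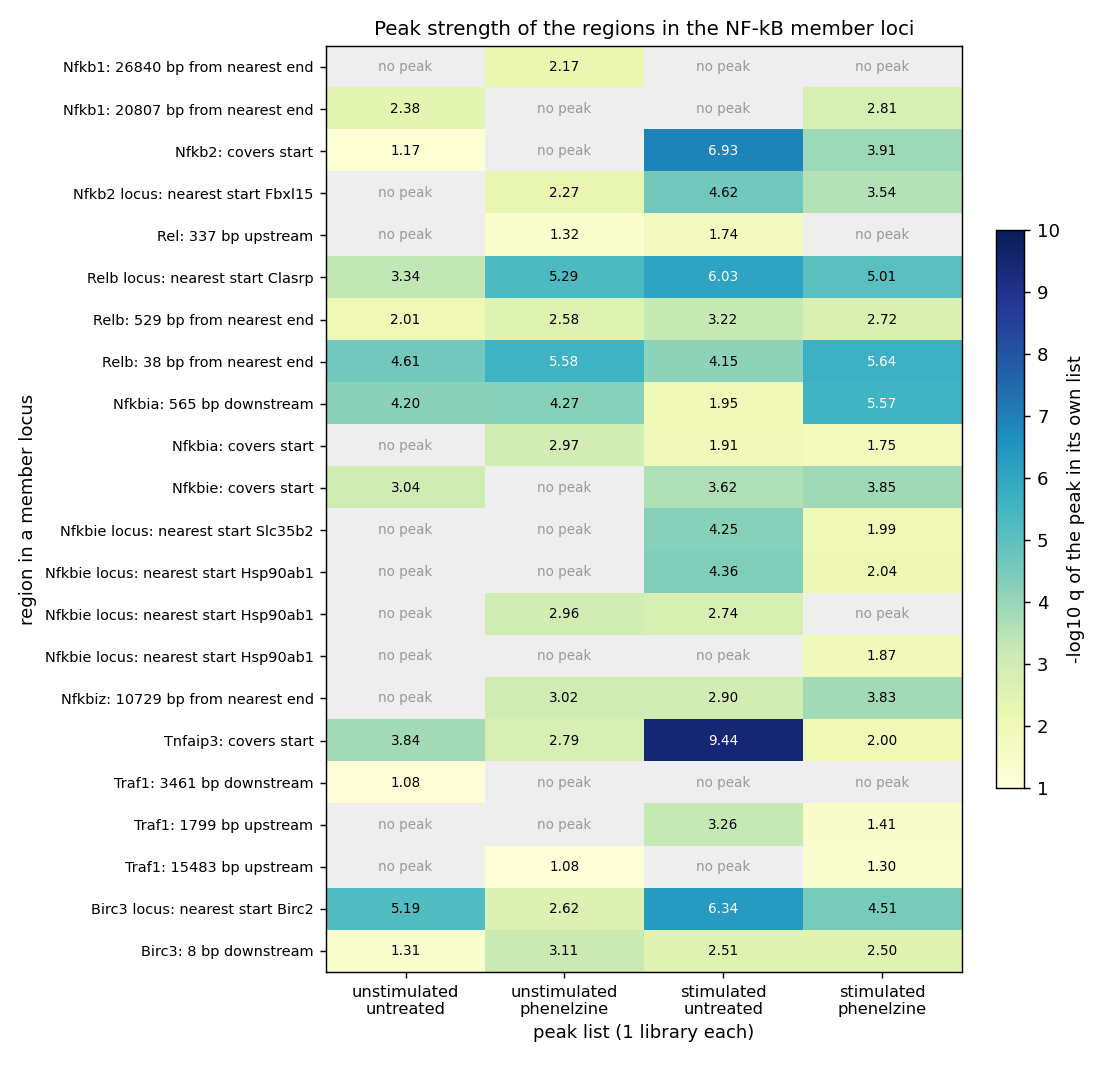
Each row is 1 of the 22 regions in the member loci, labelled by its distance to the member's start site (to the nearest end for Nfkb1, Relb and Nfkbiz) or by the neighbour whose start is nearest, and each column is 1 peak list. Colour and number give the −log10 q of the peak in its own list, and grey marks no peak. The highest value, 9.44, is at the Tnfaip3 start in stimulated untreated cells.

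**Figure D2:**
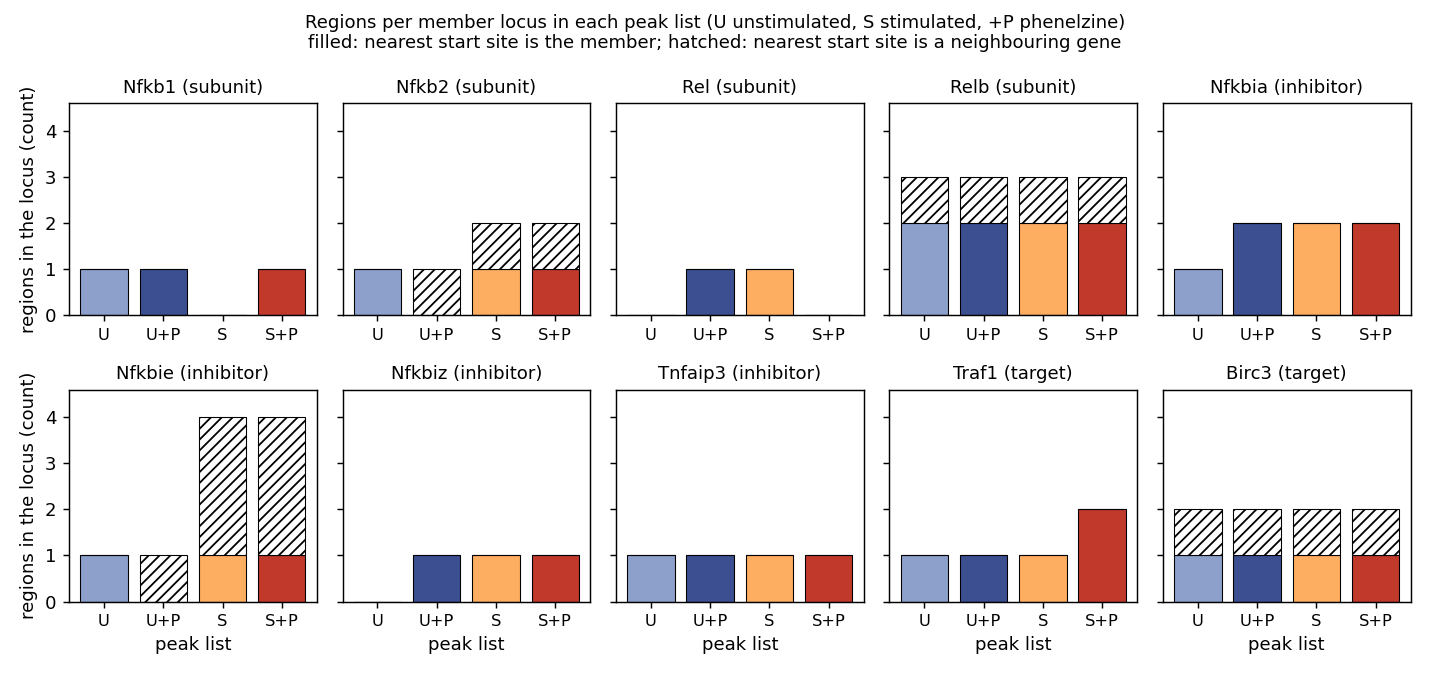
Bars give the number of regions (vertical axis) in each member's locus in the 4 peak lists, 1 library each. Filled parts are regions nearest to the member's own start and hatched parts are regions nearest to a neighbour's. The tallest bars, 4 regions at Nfkbie in both stimulated lists, are 1 region of Nfkbie and 3 of its neighbours.

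Among the subunit genes, Nfkb2 encodes p100, the precursor of p52 and an inhibitor of Relb dimers. A region on chr19:46304538-46304761 covered its first start site and was held by all lists but unstimulated phenelzine. The deposited fold enrichment (pileup over local background) was 3.87 in unstimulated untreated, 6.85 in stimulated untreated cells and 5.53 in stimulated phenelzine cells. The −log10 q was 1.17, 6.93 and 3.91. The unstimulated untreated peak was near the calling limit, stronger than only 0.706% of its list, while the stimulated untreated peak was stronger than 90.4% of its own. All 3 peaks covered the kB match GGGAATTCCC, whose first base is at position -39 from the start site. The peaks of both untreated lists also covered the match GGGGCTTTCC at position -11, and the stimulated phenelzine peak ended inside it, before the start site. No peak lay over the kB matches of the 2 downstream Nfkb2 windows. The second region of this locus, on chr19:46328153-46328527, lay at the start of Fbxl15, 15753 bp beyond the end of Nfkb2, and was missing from unstimulated untreated cells only.

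Relb, the partner of p52 in the slower non-canonical branch of the pathway, had the same 3 regions in every list. The one 38 bp beyond an end of the gene, on chr7:19629476-19629576, had folds of 6.01 in unstimulated untreated, 6.49 in unstimulated phenelzine, 5.55 in stimulated untreated cells and 6.44 in stimulated phenelzine cells. The one inside the gene, on chr7:19628534-19628909, had folds of 4.44, 4.79, 5.04 and 4.77 in the same order. Both regions were thus called in all 4 conditions, and the region next to the gene was the stronger in each list. The third, on chr7:19604432-19604577, covered the start of Clasrp.

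Rel, which encodes c-Rel, the subunit most tied to cytokine genes in T cells, had 1 region, on chr11:23771306-23771460. It lay 337 bp upstream of the start site and outside the printed window. Peaks were called in unstimulated phenelzine (fold 3.92, −log10 q 1.32) and stimulated untreated cells (fold 4.08, −log10 q 1.74). They spanned 82 and 76 bp and met only at their edges, so that a stricter rule for overlap counted 2 regions here. No list had a peak over the kB match GGGAAATCCC at position -92 of this promoter.

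Nfkb1, which encodes p105 and its product p50, had no peak at either end. Both its regions lay deep in the gene body, 20807 and 26840 bp from the nearest end. The region on chr3:135670633-135671162 had folds of 4.70 in unstimulated untreated and 4.86 in stimulated phenelzine cells. The region on chr3:135665032-135665129 was in the unstimulated phenelzine list alone, with fold 4.51. The stimulated untreated list, the longest, held no region at this gene. Exons and introns could not be separated with the gene table used.

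Of the inhibitors, Tnfaip3 encodes A20, a ubiquitin-editing enzyme that shuts off signalling upstream of the IkB kinase. Its start site was covered in all 4 lists by the region chr10:19015307-19015584. The fold was 5.45 in unstimulated untreated, 4.85 in unstimulated phenelzine, 7.71 in stimulated untreated cells and 4.38 in stimulated phenelzine cells. The −log10 q was 3.84, 2.79, 9.44 and 2.00. The stimulated untreated peak was the strongest of all 60 member peaks and stronger than 96.6% of its list, while the stimulated phenelzine peak was stronger than 29.3% of its own. These folds correspond to about 7 fragments in unstimulated untreated cells (interval 2.81 to 14.4) and 11 in stimulated untreated cells (5.49 to 19.7), intervals that overlap. The kB match GGGGATTTCC at position -12 lay under the peak in all 4 lists, and GGGACACCCC at position -125 in all but unstimulated untreated. The AP-1 match TGACTCA at position -136 lay under the peaks of unstimulated phenelzine and stimulated untreated cells. The other start site of this gene had no peak.

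Nfkbia encodes IkBa, the fast-turning inhibitor that NF-kB itself induces. It had a region inside the gene, 565 bp downstream of the start on chr12:55491896-55492082, in all 4 lists. The fold there was 5.54 in unstimulated untreated, 5.58 in unstimulated phenelzine, 4.08 in stimulated untreated cells and 5.99 in stimulated phenelzine cells. The stimulated untreated list had the weakest of these 4 peaks. A second region, on chr12:55492600-55492732, covered the start site and was called in all lists but unstimulated untreated. Its peaks had folds of 4.89, 4.07 and 4.07 in the order above, and the stimulated untreated one lay just upstream of the start. All 3 of those peaks covered the kB match GGGAATTTCC at position -29. The −log10 q of the 3 was 2.97, 1.91 and 1.75, so none reached 3.

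Nfkbie encodes IkBe, a slower inhibitor of dimers containing Rel or RelA. Its own region, chr17:45555578-45555741, covered the start site. Folds were 5.11 in unstimulated untreated, 5.25 in stimulated untreated cells and 5.38 in stimulated phenelzine cells, whose peak ended before the start. The unstimulated phenelzine list had no peak in this region. The −log10 q of 3.04, 3.62 and 3.85 lay close together. The kB match GGGGGATTCC at position -106 was covered in both stimulated lists, while the unstimulated untreated peak began inside it. The AP-1 match TGAGTCA at position -156 lay outside all 3 peaks.

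The locus of Nfkbie had 4 regions in each stimulated list and 1 in each unstimulated list, and most of these regions sit at neighbours. A region in the stimulated lists alone, chr17:45563833-45563976, covered the start of Slc35b2, 664 bp beyond the end of Nfkbie, with folds of 5.67 (stimulated untreated) and 4.33 (stimulated phenelzine). The other such region, chr17:45573273-45573405, lay 12 bp from the start of Hsp90ab1, with folds of 5.56 and 4.32. A region 614 bp from that start was in unstimulated phenelzine and stimulated untreated cells, and one 1276 bp from it in stimulated phenelzine cells alone. Counting only regions nearest to its own start, Nfkbie had 1 in every list but unstimulated phenelzine, which had 0.

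Nfkbiz encodes IkBz, an atypical nuclear IkB protein that acts on secondary response genes. Its single region, chr16:55822104-55822591, lay in the gene body 10729 bp from the nearest end. It was called in unstimulated phenelzine (fold 5.01), stimulated untreated (4.88) and stimulated phenelzine cells (5.47). It was missing from unstimulated untreated cells, the list with the lowest implied background coverage, and the part of depth in this was not tested.

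Of the target and adaptor genes, Traf1 encodes a TNF-receptor-associated adaptor. It had the only region nearest to a member's own start that both stimulated lists held and both unstimulated lists lacked. This region, chr2:34963571-34963863, lay 1799 bp upstream of the start, with fold 5.04 and −log10 q 3.26 in stimulated untreated cells and 3.91 and 1.41 in stimulated phenelzine cells. Regions of this kind were 5.88% of all regions of the series and 3 of the 22 in the member loci, the others being those at Slc35b2 and Hsp90ab1. Traf1 also had the only member region held by both phenelzine lists and neither untreated list, chr2:34977255-34977370, 15483 bp upstream. Its folds were 3.74 (unstimulated) and 3.86 (stimulated), with −log10 q 1.08 and 1.30. That was 1 of 22 regions, against 2.45% of all regions. Another region, 3461 bp downstream of the start, was in unstimulated untreated cells alone with −log10 q 1.08. No list had a peak within 1 kb of the Traf1 start.

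Birc3 encodes cIAP2, a ubiquitin ligase that carries signals from TNF receptors and protects cells from death. A region 8 bp downstream of its start, chr9:7872832-7873162, was called in all 4 lists. The fold was 3.95 in unstimulated untreated, 5.09 in unstimulated phenelzine, 4.62 in stimulated untreated cells and 4.70 in stimulated phenelzine cells. The unstimulated untreated peak was the lowest of these, with −log10 q 1.31 against 3.11, 2.51 and 2.50. The other region of the locus, chr9:7836879-7837232, covered the start of Birc2, 10236 bp beyond Birc3, and was also in all 4 lists, with folds of 6.27, 4.74, 6.47 and 5.67.

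**Figure D3:**
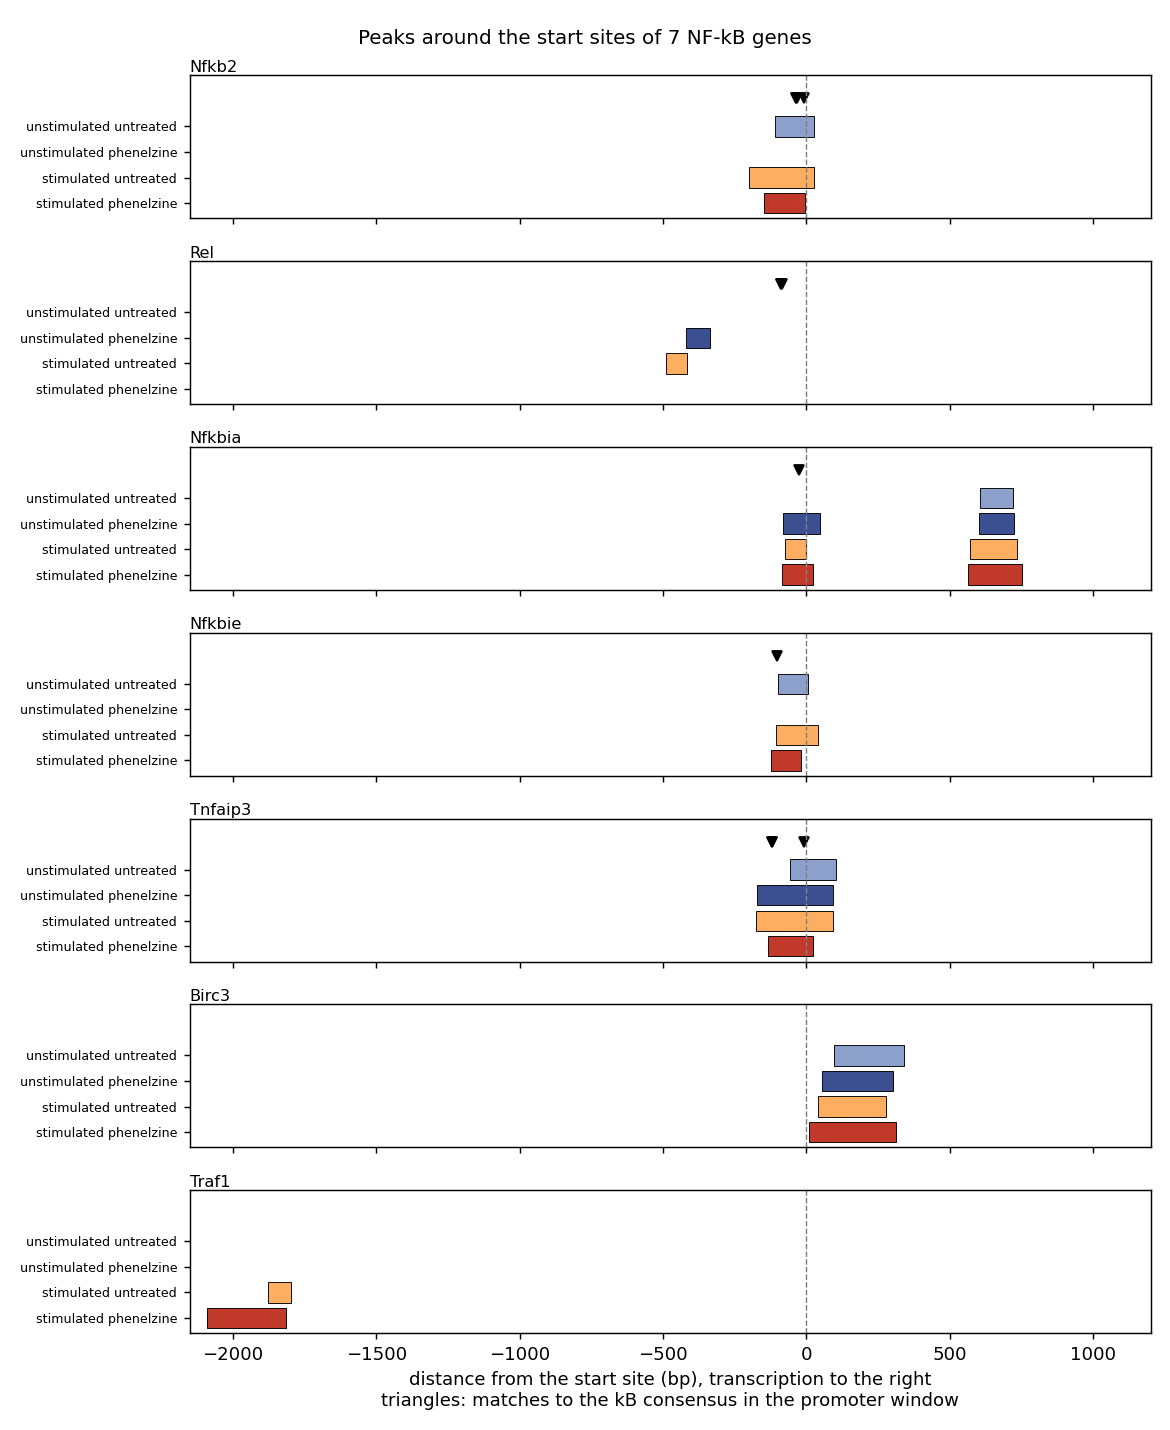
Peaks of each list (rows, 1 library each) are drawn by distance in bp from the start site of the 7 members with a start in the promoter table, with transcription to the right and the first start site used where there are several. Triangles are kB matches in the promoter window. Peaks lie over or beside the start at Nfkb2, Nfkbia, Nfkbie, Tnfaip3 and Birc3, and away from it at Rel (337 bp) and Traf1 (1799 bp).

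A peak within 1 kb of a start site (of either end for Nfkb1, Relb and Nfkbiz) was found at 6 members in unstimulated untreated cells, 5 with phenelzine, 7 in cells stimulated without phenelzine and 6 in cells stimulated with it. Over all genes by the same rule the share was 23.5%, 26.3%, 30.1% and 28.2%. In any list it was 7 members, against 35.9% of all genes. Relb, Nfkbia, Tnfaip3 and Birc3 had one in all 4 lists, 4 of 10 against 18.1% of all genes. Nfkb2 and Nfkbie lacked one in unstimulated phenelzine cells alone, and Rel had one in unstimulated phenelzine and stimulated untreated cells. By presence, 7 of the 22 member regions were in all 4 lists, 5 in 3 lists, 7 in 2 and 3 in 1. Over the series these shares were 26.8%, 13.5%, 16.1% and 43.6%.

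Stimulation of untreated cells was compared by the number of regions per locus. Nfkb2 (2 against 1), Rel (1 against 0), Nfkbia (2 against 1), Nfkbie (4 against 1) and Nfkbiz (1 against 0) had more in stimulated cells, and Nfkb1 had fewer (0 against 1). These 5 of 10 with more stand beside 23.6% of all genes and 40.6% of genes with a region in any list. The 1 with fewer stands beside 4.53% and 7.79%. The median net difference was 0.5 over the members and 0 over all genes. With regions nearest to the member's own start only, 3 had more (Rel, Nfkbia and Nfkbiz) and 1 fewer, beside 34.8% and 7.25% of genes with such a region, so the extra regions at Nfkb2 and Nfkbie were those of their neighbours. The members' shares were close to the background, and nothing particular to the pathway was read from them. The difference at Nfkbia turned from 1 to -1 with a −log10 q of at least 3 and with lists of equal length. Its peaks in stimulated untreated cells had −log10 q 1.91 at the start and 1.95 in the body.

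Stimulation of phenelzine-treated cells gave more regions at Nfkb2 (2 against 1), Nfkbie (4 against 1) and Traf1 (2 against 1) and fewer at Rel (0 against 1). That was 3 with more, beside 16.0% of all genes and 27.5% of genes with a region, and 1 with fewer, beside 9.56% and 16.4%. By own regions the same 3 genes had more and Rel fewer, beside 23.9% and 14.9% of genes with such a region. Here the start-site regions of Nfkb2 and Nfkbie were themselves among the additional ones, 1 against 0 at each.

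Phenelzine in unstimulated cells gave more regions at Rel (1 against 0), Nfkbia (2 against 1) and Nfkbiz (1 against 0), and fewer at none of the 10. The 3 with more stand beside 15.7% of all genes and 27.0% of genes with a region, and the 0 with fewer beside 8.54% and 14.7%. By own regions the start-site peaks of Nfkb2 and Nfkbie were absent with phenelzine, which made 3 with more and 2 with fewer, beside 22.9% and 12.5% of genes with such a region. This comparison and that of stimulation in untreated cells share the unstimulated untreated list.

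Phenelzine in stimulated cells gave more regions at Nfkb1 (1 against 0) and Traf1 (2 against 1) and fewer at Rel (0 against 1), by locus and by own regions alike. The 2 with more stand beside 10.4% of all genes and 17.8% of genes with a region, and the 1 with fewer beside 16.2% and 28.0%. For own regions the shares over genes with such a region were 15.8% and 24.4%. With a −log10 q of at least 3, or with lists of equal length, the net difference of Traf1 turned from 1 to -1. At the start sites, 6 members had a peak with phenelzine and 7 without. Both stimulated lists held 15 of the member regions, and with phenelzine the −log10 q was lower at 11 of them and higher at 4. These values belong to lists of different length and background and were not tested. The median −log10 q of the whole list was also lower with phenelzine, 2.68 against 2.93. The share over all regions held by both stimulated lists was not computed, so nothing particular to the members was read from these numbers. The differences were widest among the lower ones at the starts of Tnfaip3 (2.00 against 9.44) and Nfkb2 (3.91 against 6.93). The 4 higher ones were the start of Nfkbie (3.85 against 3.62), the body regions of Nfkbia (5.57 against 1.95) and Nfkbiz (3.83 against 2.90), and the region next to Relb (5.64 against 4.15).

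**Figure D4:**
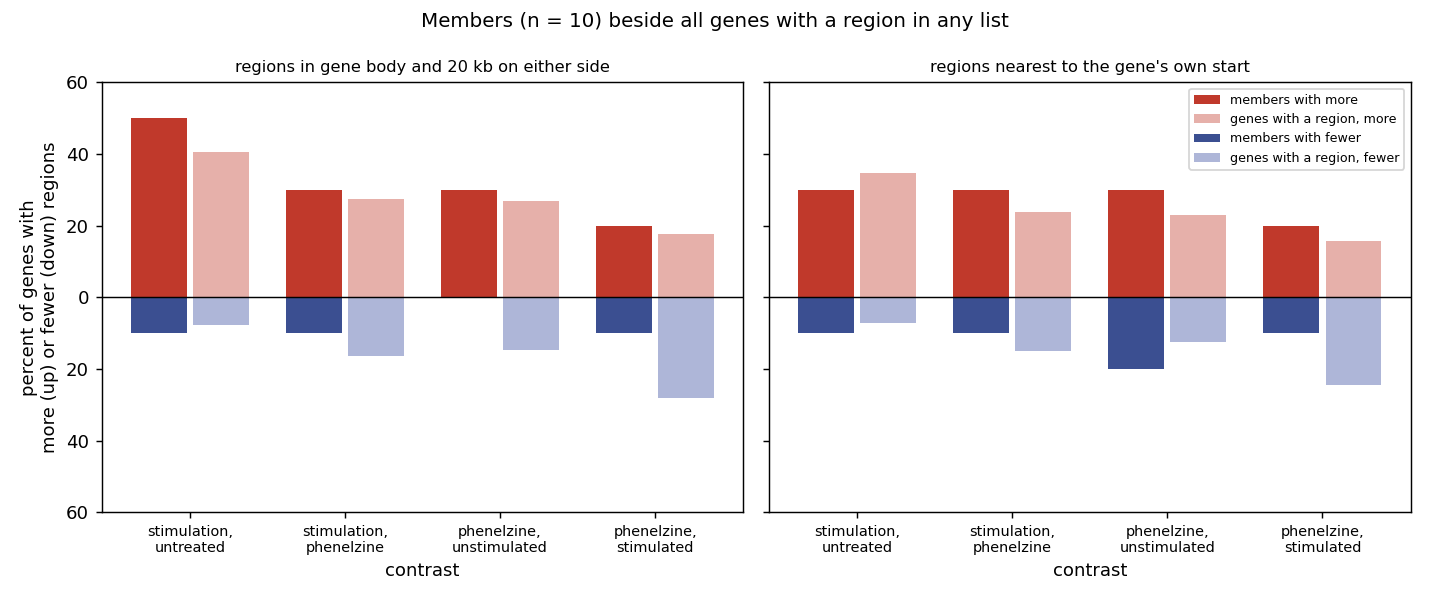
Bars above 0 give the percentage of genes with more regions and bars below 0 the percentage with fewer, in each of the 4 contrasts, for the 10 members (dark) and for all genes with a region in any list (light). Left, regions in the gene body and 20 kb on either side, and right, regions nearest to the gene's own start. The bar of members with more regions after stimulation of untreated cells stands for 5 of 10 on the left and 3 of 10 on the right, where the light bar is at 34.8%.

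Grouped by role, the 4 subunit genes together had 4 own regions in every list. The 4 inhibitors had 3 in unstimulated untreated, 4 in unstimulated phenelzine and 5 in each stimulated list. Traf1 and Birc3 together had 2, 2, 2 and 3. The inhibitors with an own region numbered 3, 3, 4 and 4. Between unstimulated and stimulated lists the inhibitors thus differed by 2 regions without phenelzine and 1 with it, and the target genes by 0 and 1. Without phenelzine the 2 were the start region of Nfkbia (−log10 q 1.91) and the body region of Nfkbiz (2.90), neither reaching 3. The lists also differed in length, with 6519, 7929, 10405 and 9322 peaks. No share over all genes was computed for these groups, and the differences were not tested.

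Other genes of the pathway were taken from a list of 42, all in the gene table. Of these, 35 had a region in some list, beside 58.1% of all genes, and 28 a start-site peak, beside 35.9%. At 13 the start-site peak was in all 4 lists, beside 18.1% of all genes. Among the ubiquitin machinery and brakes this held at 7 of 9 genes, including Cyld, a deubiquitinase gene, and Otulin. It held at 1 of 10 receptors and adaptors and at 2 of 9 target genes. The core factors, inhibitors and kinases had this at 1 of 8 (Map3k14, the NF-kB-inducing kinase gene), and the antigen receptor arm at 2 of 6, Bcl10 and Malt1, whose products join in the complex that links the receptor to the IkB kinase. Ikbkb, a catalytic IkB kinase subunit gene, and Prkcq were among the genes with no region in any list. Rela had 1 region in each list but stimulated phenelzine.

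Within this list the genes with the most regions over the 4 lists were Bcl2l1 and Tnfrsf1b (15 each), Traf2 (12), and Bcl3 and Rnf31 (11 each). These counts take every region in the gene body and 20 kb on either side, whichever start is nearest, so some may be those of neighbours. Tnfrsf1b and Bcl3 had no start-site peak in any list. Tnf and Ltb, which had the same count in every list, were counted as separate genes. After stimulation of untreated cells 17 of 42 had more regions and 3 fewer, beside 23.6% and 4.53% of all genes, or 40.6% and 7.79% of genes with a region. Among them were Tnfrsf1b, the TNF receptor 2 gene, at 6 against 3 and Traf2 at 4 against 1, and Map3k7 and Nfkbid each at 0 against 1. In phenelzine-treated cells 12 had more and 7 fewer, beside 16.0% and 9.56% of all genes, or 27.5% and 16.4% of genes with a region. All 12 had 1 more, Bcl2l1 (4 against 3) and Bcl3 (2 against 1) among them, and all 7 had 1 fewer, Bcl10 (1 against 2) and Ltb (0 against 1) among them. With phenelzine in unstimulated cells 12 had more and 6 fewer, beside 15.7% and 8.54% of all genes, or 27.0% and 14.7% of genes with a region. Sharpin, Traf2 and Traf5 each had 3 against 1, while Bcl3, an atypical IkB gene, had 1 against 3 and Bcl2l1 3 against 4. With phenelzine in stimulated cells 7 had more and 11 fewer, beside 10.4% and 16.2% of all genes, or 17.8% and 28.0% of genes with a region. Examples were Traf5 at 3 against 0 and Cflar at 2 against 1, and Bcl3 at 2 against 5 and Tnfrsf1b at 3 against 6. The median net difference was 0 in all 4 contrasts, over this list and over all genes.

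Marker genes could not settle the labelled cell type. Of 8 CD8 T cell markers 7 were in the gene table, and 5 of these had a region in some list. Their counts per locus summed to 3, 5, 7 and 3 in the 4 lists. Such sums count a region once for each locus that holds it, so they are not numbers of distinct regions. Cd3d and Cd3g had the same counts (1, 2, 2 and 1). Cd8a and Cd8b1 were at 0 in every list, and Cd5 alone had a start-site peak. Of other cells' markers, 2 of 5 B cell genes, 4 of 7 myeloid genes and 2 of 4 epithelial genes had a region, with sums of 4, 3, 4 and 2, then 3, 3, 4 and 5, then 0, 0, 1 and 2. Ms4a1, Pax5, Cd79b, Csf1r, Itgam, S100a9, Epcam and Krt18 were at 0, and S100a8 had a start-site peak in all lists but unstimulated untreated. Over all genes 58.1% had a region in some list and 35.9% a start-site peak, so no cell type was read from these counts. The part of other cells in the member regions was not tested.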

How the data were processed

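Each library came as its own list of broad peaks, with no pooling seen. The submitters' processing notes name mm10, Picard, HOMER, MACS2, Bowtie2 2.2.5 and Trimmomatic 0.33. Parameters and filters are not stated in what was used here. The peak names carry a tag that may stand for a limit on fragment length, and its meaning is not stated. Whether the pileups count all fragments is therefore not known. The deposited fold enrichment is a ratio of pileup to local background. The deposited p and q columns are on the −log10 scale, and the deposited score was not used. Peaks on Y were set aside.

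Peaks overlapping by 1 bp or more were merged. Genes and start sites came from RefSeq tables of GRCm38.p6, with no exons. Members were set beside all protein-coding genes by counts, with no test. Background coverage was computed from the commonest fold and −log10 p of each list (107 to 190 peaks), with (pileup + 1) over (background + 1) as the fold and a Poisson p, and gave each peak's pileup from its fold. Python 3.11.15, pandas 2.3.3 and scipy 1.17.1 were used. Merging and counting were checked on simulated data.

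Members and gene lists were chosen with earlier results of these data known. All 10 members are named. Of the other pathway genes, the 5 with the most regions and the 2 highest and lowest net differences per contrast are named by rule, with ties in alphabetical order. Traf5 is also named for a tie. Cyld, Otulin, Map3k14, Malt1, Ikbkb, Prkcq and Rela were named after their values were seen. The marker Trac was not matched. Alternatives were a −log10 q of at least 3, equal list lengths, other loci, overlaps and start windows, and, added after seeing the data, regions nearest to the member's own start.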

Additional observations from a re-analysis of the deposited data

Results flagged for a closer look

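Rel was the only member whose difference had opposite signs in both settings of a contrast. Stimulation gave a net difference of 1 region in untreated cells (1 against 0) and -1 in phenelzine-treated cells (0 against 1), a difference of -2 between the arms. Phenelzine likewise gave 1 region in unstimulated cells and -1 in stimulated cells, again -2, from the same 4 numbers. Every value rests on 1 library and the difference was not tested. The 2 peaks behind it had −log10 q of 1.32 and 1.74, and neither was present with a minimum of 3.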

How the results depend on the processing

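Counts of members are small, so 30 of 80 recomputed counts moved by more than 1.5 times, and 70 of 240 net differences of single members changed, 4 of them in sign. None of 12 counts moved when regions were joined only by an overlap of 50% of the shorter peak, nor did the 4 start-site counts with a window of 500 bp. With a −log10 q of at least 3, the distinct regions in the member loci numbered 6 in unstimulated untreated cells, 5 with phenelzine, 11 in cells stimulated without phenelzine and 8 in cells stimulated with it, and members with a start-site peak 3 in unstimulated phenelzine and 4 in stimulated untreated cells. Members with fewer regions were then 0 for stimulation with phenelzine and 4 for phenelzine in stimulated cells, and phenelzine in unstimulated cells gave 1 with more and 2 with fewer. With lists cut to 6519 peaks, stimulation of untreated cells gave 3 with more and 2 with fewer, and members with fewer numbered 2 for stimulation with phenelzine, 1 for phenelzine in unstimulated and 3 for phenelzine in stimulated cells. Under both of these settings Nfkbia turned from 1 to -1 for stimulation of untreated cells and Traf1 from 1 to -1 for phenelzine in stimulated cells. With 50 kb on either side, stimulation with phenelzine gave 3 with fewer, phenelzine in unstimulated cells 7 with more, and phenelzine in stimulated cells 4 with more and 2 with fewer. With the gene body alone, stimulation of untreated cells gave 2 with more and 2 with fewer, stimulation with phenelzine 0 with fewer, phenelzine in unstimulated cells 3 with fewer, and phenelzine in stimulated cells 1 with more and 0 with fewer, with 7, 8 and 9 distinct regions in unstimulated phenelzine, stimulated untreated and stimulated phenelzine cells. With regions nearest to the member's own start, chosen after seeing the data, stimulation of untreated cells gave 3 with more and phenelzine in unstimulated cells 2 with fewer. The stricter settings use fewer peaks and the other loci other stretches of DNA by construction, and no further cause was tested. No paired analysis was possible because each condition has 1 library. Total reads are not in the lists, and the part of depth in the calls was not tested.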
